A study of Mus musculus with 14 samples.

Results

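The comparison was between the uteri of HIF2A cKO and WT mice at estrus, the ovulatory stage of the reproductive cycle. The members were the 3 WT and 3 HIF2A cKO estrus libraries, 6 of the 14 libraries of the series, and the genes at 1 FPKM or more in at least 3 of those 6. Of 31274 genes in the deposited table, 13531 met that rule and 13529 were tested. FPKM is a read level per gene length and per library size. It does not adjust for the makeup of a library, so genes and libraries can be compared only roughly. All 6 libraries came from whole uterus. The mice were FVB/N, 2 months old, intact and given no treatment, and each genotype had the replicate numbers 1, 2 and 4. In the series, WT and HIF2A cKO uteri were also collected at diestrus; those libraries entered only 1 alternative fit. The labels call the genotype a cKO, a conditional knockout, but name neither the Cre line nor the deleted exons, so the cells that lost HIF2A are not known here. They also do not say that the libraries of a group came from separate animals, so a p-value reflects only how far these libraries differ, which may be technical.

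HIF2A, encoded by Epas1, is 1 of the oxygen-regulated alpha subunits that pair with ARNT and switch on genes for glucose use, oxygen supply and matrix remodelling. When oxygen is plentiful, prolyl hydroxylases of the EGLN family mark the alpha subunits and the VHL complex sends them for degradation. HIF1A, the closest relative, drives most of the glycolytic genes. In the uterus HIF2A is best known from the stroma around implantation, and the estrus uterus is a tissue under estrogen, with fluid in the lumen, a thick epithelium and many leukocytes.

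The 6 libraries resembled each other closely. Their FPKM summed to 443770 to 486490, and the correlation of log2(FPKM + 1) over the genes tested was 0.9889 to 0.9936 within a genotype and 0.9821 to 0.9881 between genotypes. FPKM do not give read depth. The lowest values pointed to a clear ratio of depths in only 3 of 15 pairs of libraries, and these were within 1.13-fold. HIF2A cKO replicate 1 stood apart in Rn45s, the ribosomal RNA precursor, at 819 FPKM against 208 to 280 in the other 5 libraries. WT replicate 1 stood apart in adipocyte markers, whose summed level was 99.4 FPKM there and from 5.23 to 36.0 FPKM in the others. Defining markers of the uterus were present in every library: Esr1, the estrogen receptor, at 73.3 to 92.4 FPKM, Epcam of the epithelium at 151 to 174 FPKM and Myh11 of smooth muscle at 355 to 472 FPKM.

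Epas1 itself was not lower in the HIF2A cKO libraries. Epas1 lies on chromosome 17 of mm10, from 86753700 to 86833410 in GENCODE M21, on the plus strand. It stood at 34.2, 31.2 and 33.3 FPKM in WT replicates 1, 2 and 4 and at 45.7, 39.9 and 38.0 FPKM in HIF2A cKO replicates 1, 2 and 4. Every HIF2A cKO library lay above every WT library, and the means were 41.2 ± 4.01 against 32.9 ± 1.56 FPKM (SD, n = 3 each). The difference of 8.27 FPKM gave p = 0.1 in the exact two-sided permutation test, the smallest p that 3 against 3 can give. On the log2(FPKM + 1) scale the difference was 0.31 (SE 0.074, adjusted p = 0.0645 in limma with Benjamini-Hochberg adjustment), and it passed the 0.05 threshold only where libraries were given unequal weights (0.355, adjusted p = 0.0359). A value over the whole gene counts the exons that remain after a deletion as well, so it does not check which exons the HIF2A cKO libraries lack. Of 9 HIF pathway components tested, none passed the threshold. At an unadjusted p under 0.05 in limma, 2 were higher and 2 lower, against 12.5% of all genes higher and 8.81% lower. Hif1a stood at 42.2 ± 3.11 FPKM in WT and 41.7 ± 2.88 in HIF2A cKO, and Arnt at 21.8 ± 0.927 and 22.8 ± 0.206. Arnt2, another dimer partner, was at 21.4, 26.5 and 19.8 FPKM in WT and 16.1, 18.5 and 17.3 FPKM in HIF2A cKO, without overlap (adjusted p = 0.108). Egln2, a prolyl hydroxylase, was at 33.3 to 37.68 FPKM in WT and 37.71 to 39.9 FPKM in HIF2A cKO (adjusted p = 0.178). The steroid receptors Esr1 and Pgr also did not pass: Esr1 had means of 88.5 and 82.6 FPKM and Pgr of 28.0 and 24.4 FPKM, WT first.

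Of the 13529 genes tested, 453 passed the threshold (3.35%): 283 were higher (2.09%) and 170 lower (1.26%) in HIF2A cKO. At an unadjusted p under 0.05 there were 1697 higher (12.5%) and 1192 lower (8.81%) genes. The changes were mostly small. Only 49 of the 453 reached 2-fold on the log2 scale (0.362% of the genes tested), 20 higher and 29 lower, and the median difference over all genes was 0.0080. The genotypes did not overlap for 1992 genes higher (14.7%) and 1604 genes lower (11.9%) in HIF2A cKO, counted without any test. The counts depended on single libraries and on the spread used. Without HIF2A cKO replicate 1, the library with high Rn45s, 23 genes were higher and 34 lower, and without WT replicate 2 the counts were 49 and 33. Fitted with all 14 libraries, 10 genes were higher and 5 lower. The diestrus groups in that fit had median SDs of 0.145 and 0.163 log2 units, against 0.0838 and 0.0750 at estrus. With a mean per group, the estrus differences themselves could not change in that fit, only the spread used. Among the 453, 40 were past the threshold in every fit that left out 1 library, 21 of them higher and 19 lower.

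**Figure D1:**
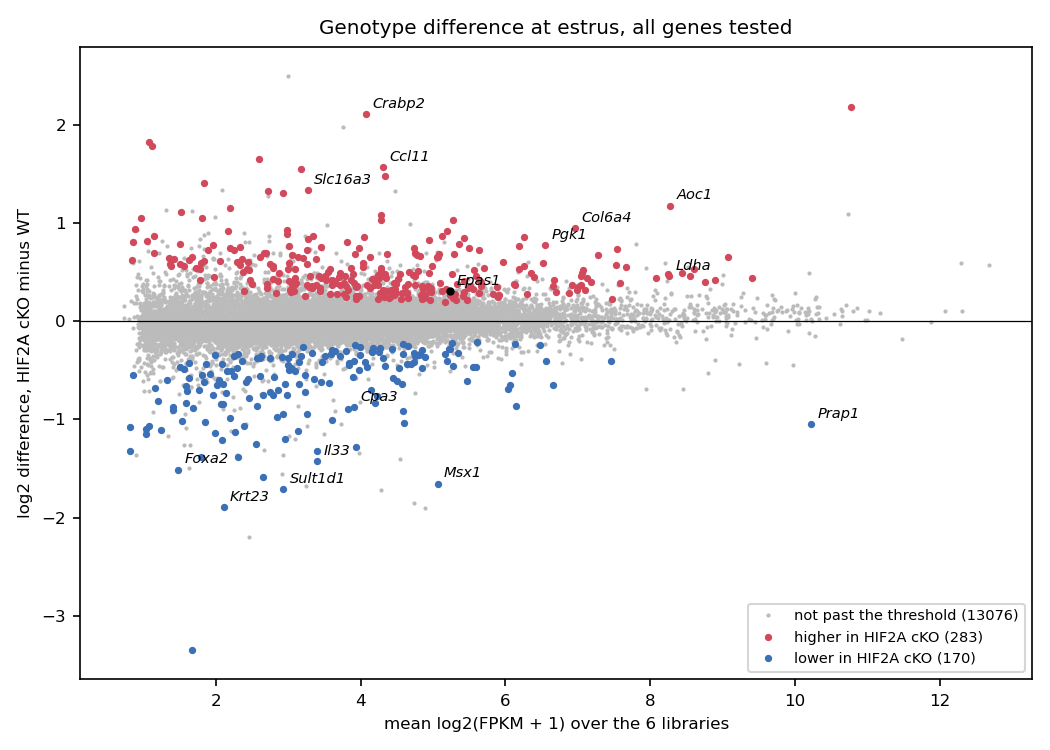
Each point is 1 of the 13529 genes tested, with the mean log2(FPKM + 1) over the 6 estrus libraries on the x axis and the log2 difference, HIF2A cKO minus WT, on the y axis. The 283 genes higher in HIF2A cKO are red, the 170 lower are blue, and Epas1, which did not pass, is black.

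Many glycolysis genes were higher in HIF2A cKO. The list held 23 genes for glucose breakdown, glycogen and lactate, all were tested, and 11 were higher in HIF2A cKO with none lower (47.8%, against 2.09% of all genes higher). Their median log2 difference was 0.349, against 0.0080 over all genes. At an unadjusted p under 0.05 in limma 19 of 23 were higher, against 12.5% of all genes. Slc16a3, the transporter that exports lactate, stood at 5.48, 5.50 and 4.32 FPKM in WT replicates 1, 2 and 4 and at 15.8, 10.8 and 17.4 FPKM in HIF2A cKO. Its lowest HIF2A cKO value was above every WT value, and its mean was 2.88-fold higher (log2 difference 1.34, SE 0.16, adjusted p = 0.0103). Pgk1, the kinase that makes ATP from bisphosphoglycerate, was at 78.2, 66.0 and 67.4 FPKM in WT and at 129, 106 and 131 FPKM in HIF2A cKO, a 1.73-fold rise (adjusted p = 0.0107). Pdk1, which blocks entry of pyruvate into the mitochondrial cycle, had WT values of 5.39, 4.86 and 5.29 FPKM and HIF2A cKO values of 10.9, 9.24 and 8.56 FPKM (1.85-fold, adjusted p = 0.00902). Eno1, an enolase, rose from 25.8 ± 1.39 to 41.2 ± 2.34 FPKM (SD, n = 3 each, adjusted p = 0.00478). For these 4 genes the genotypes did not overlap, and the increase was present in each HIF2A cKO library.

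The other risers cover most steps of the pathway. Hk1 phosphorylates glucose and rose 1.23-fold, Gpi1 isomerizes the sugar phosphate and rose 1.28-fold, and Pfkl, a subunit of the committing kinase, rose from 25.1 to 37.8 FPKM on average. Tpi1 (1.31-fold), Pgam1 (1.34-fold) and Ldha (1.37-fold) belong to the later steps, and Gys1, which builds glycogen, rose 1.27-fold. Aldoa just missed the threshold at 491, 416 and 434 FPKM in WT and 590, 546 and 608 FPKM in HIF2A cKO (adjusted p = 0.0507). Hk2 (adjusted p = 0.0719) and Pkm (adjusted p = 0.158) had means of 9.22 and 187 FPKM in WT against 12.2 and 222 FPKM in HIF2A cKO. Gapdh was level, but at 11.8 to 16.4 FPKM it was listed far below its neighbours in the pathway. Many glycolytic genes have near-identical processed copies in the mouse genome over which the authors' counting could have split reads, so their levels are uncertain. Pgm2, a phosphoglucomutase outside the list and chosen after its values were seen, rose from 15.1 ± 0.729 to 22.4 ± 1.10 FPKM (adjusted p = 0.00854). It passed under all 19 alternatives other than the 2-fold rule, which its log2 difference of 0.543 did not reach. In the fits that left out 1 library, 12 list members were higher without WT replicate 1, 4 without WT replicate 2, 4 without WT replicate 4, 2 without HIF2A cKO replicate 1, 7 without HIF2A cKO replicate 2 and 4 without HIF2A cKO replicate 4. Eno1 and Pdk1 passed in all 6 of these fits, Slc16a3 and Pgk1 in all but the one without HIF2A cKO replicate 1 (adjusted p = 0.0561 for each), and in the fit of 14 libraries only Slc16a3 of the list passed.

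Genes known as hypoxia or HIF targets showed the same direction more unevenly. Of 33 listed, 31 were tested, since Epo and Loxl2 were below the filter, and 11 were higher with none lower (35.5%, against 2.09% of all genes higher; median log2 difference 0.259). Car9, a carbonic anhydrase of the cell surface and a standard hypoxia marker, was at 2.33, 2.12 and 2.38 FPKM in WT and at 6.61, 4.40 and 4.77 FPKM in HIF2A cKO (2.31-fold, adjusted p = 0.0151). Car12, another surface carbonic anhydrase, rose from 30.3 ± 2.73 to 53.2 ± 5.97 FPKM (1.76-fold, adjusted p = 0.00916). Stc2, a secreted glycoprotein, had WT values of 18.3, 17.6 and 23.4 FPKM and HIF2A cKO values of 36.0, 27.8 and 38.3 FPKM (adjusted p = 0.0344). Slc2a1, the glucose carrier, went from 18.9, 18.7 and 18.8 FPKM to 27.8, 22.0 and 27.9 FPKM (1.38-fold, adjusted p = 0.0447). In each of these 4 genes all HIF2A cKO libraries were above all WT libraries.

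P4ha1 and P4ha2, the prolyl hydroxylases of collagen, rose 1.39-fold and 1.24-fold, and the others past the threshold were Bnip3, Ddit4, Higd1a, Trf and Vldlr. Other known targets did not follow. Vegfa, the endothelial growth factor, was at 31.7 ± 4.30 FPKM in WT and 31.5 ± 2.94 in HIF2A cKO, and Hmox1, heme oxygenase, at 25.6 ± 1.94 and 27.4 ± 3.24. Egln3, the hydroxylase that is itself a HIF target, had WT values of 33.4, 26.9 and 30.2 FPKM and HIF2A cKO values of 23.3, 17.9 and 28.7 FPKM (adjusted p = 0.214). Adm, adrenomedullin, was at 12.7 to 15.7 FPKM in WT and 11.6 to 12.2 FPKM in HIF2A cKO (adjusted p = 0.154). Of 24 angiogenesis genes tested none passed, and of 18 iron handling genes Trf was higher and Steap2 lower (11.1% together, against 3.35% of all genes). Fewer hypoxia members were higher when 1 library was left out: 6 without WT replicate 1, 1 without WT replicate 2, 4 without WT replicate 4, 1 without HIF2A cKO replicate 1, 6 without HIF2A cKO replicate 2 and 4 without HIF2A cKO replicate 4. Car9 missed without WT replicate 2 (adjusted p = 0.0674) and Car12 without HIF2A cKO replicate 1 (adjusted p = 0.0526), and none of the list passed in the fit of 14 libraries.

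**Figure D2:**
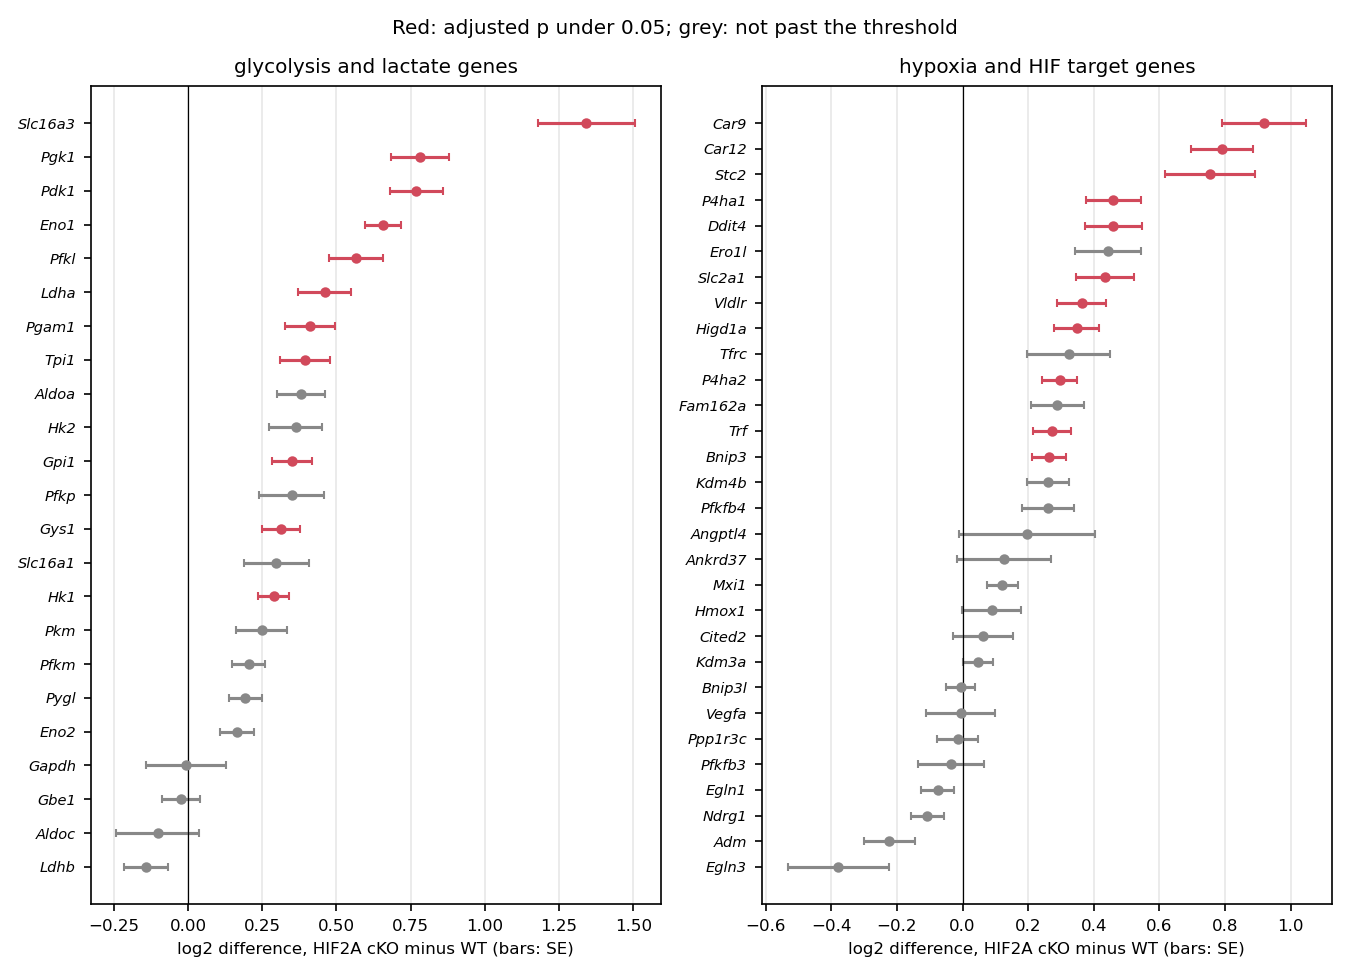
The log2 difference, HIF2A cKO minus WT, is on the x axis with its SE as bars, for the 23 glycolysis and lactate genes (left) and for hypoxia and HIF target genes (right, 1 of the 31 tested not drawn). The 11 genes of each list that passed are red and all lie to the right of 0; Vegfa and Gapdh lie on it.

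HIF dimers bind a short core, ACGTG or GCGTG, and the promoters of 4 of the genes that rose are shown so that these letters can be seen in place. The sequences are the 250 bases before the gene start, from RefSeq on GRCm38.p6, on the plus strand and written 5′ to 3′. Capitals mark every ACGTG or GCGTG on either strand, so that CACGT and CACGC are marked too. The windows are chr11:120948817-120949066 for Slc16a3, chrX:106186850-106187099 for Pgk1, chr2:71872974-71873223 for Pdk1 and chr4:43506776-43507025 for Car9.
Slc16a3: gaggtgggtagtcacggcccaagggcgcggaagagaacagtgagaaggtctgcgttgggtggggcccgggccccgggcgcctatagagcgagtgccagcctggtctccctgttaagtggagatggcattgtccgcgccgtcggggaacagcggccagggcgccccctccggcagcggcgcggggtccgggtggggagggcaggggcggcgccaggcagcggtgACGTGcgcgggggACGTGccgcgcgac
Pgk1: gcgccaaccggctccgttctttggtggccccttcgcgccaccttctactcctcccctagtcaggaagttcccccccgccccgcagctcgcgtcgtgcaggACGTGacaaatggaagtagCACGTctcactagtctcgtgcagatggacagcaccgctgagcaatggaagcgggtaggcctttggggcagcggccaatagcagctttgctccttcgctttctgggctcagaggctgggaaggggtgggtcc
Pdk1: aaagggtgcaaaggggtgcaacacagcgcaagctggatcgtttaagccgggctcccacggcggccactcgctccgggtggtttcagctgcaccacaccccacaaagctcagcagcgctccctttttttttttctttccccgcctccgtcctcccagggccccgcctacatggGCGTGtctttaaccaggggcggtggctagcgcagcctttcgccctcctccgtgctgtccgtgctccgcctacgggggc
Car9: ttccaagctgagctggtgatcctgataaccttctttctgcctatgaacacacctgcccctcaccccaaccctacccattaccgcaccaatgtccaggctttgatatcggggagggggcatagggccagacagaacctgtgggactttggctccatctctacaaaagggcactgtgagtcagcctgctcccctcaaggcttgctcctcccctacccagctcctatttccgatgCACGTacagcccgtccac
Slc16a3 and Pgk1 held 2 matches each and Pdk1 and Car9 held 1, none of which was the overlapping E-box CACGTG. A match to these letters is common: 38.6% of all 32851 windows of that length held 1, and so did 61.0% of the 9759 tested genes with a window. Among the 11 glycolysis genes that rose, 8 held a match (72.7%), against 18 of 23 in the whole list (78.3%). Among the hypoxia genes that rose, 8 of 10 with a window did (80.0%), against 21 of 23 with a window in the tested list (91.3%). Over all genes, 52.8% of the 218 higher and 55.0% of the 120 lower genes with a window held a match. These are matches to letters, not measured binding.

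The largest single rises were in genes of other kinds. Crabp2, which carries retinoic acid in the cytosol, is on chromosome 3 from 87948666 to 87953376. It stood at 7.28, 6.03 and 8.05 FPKM in WT and 38.8, 36.1 and 28.1 FPKM in HIF2A cKO, a 4.82-fold rise (log2 difference 2.12, SE 0.13, adjusted p = 0.00192). Every HIF2A cKO library was more than 3 times the highest WT library. Ccl11, the chemokine eotaxin that attracts eosinophils, was at 10.9, 8.82 and 11.9 FPKM in WT and 43.2, 30.8 and 27.4 FPKM in HIF2A cKO (3.21-fold, adjusted p = 0.00854). The eosinophil markers did not follow: none of 4 tested passed, and all 4 log2 differences were negative with a median of -0.249. Their summed level was 113 to 157 FPKM in WT and 103 to 135 FPKM in HIF2A cKO. Il1a, an inflammatory cytokine, rose from 1.33, 0.936 and 1.34 FPKM to 4.61, 3.38 and 7.13 FPKM (4.20-fold, adjusted p = 0.0190). Fam3b, a secreted cytokine-like protein, rose 3.34-fold and Atp2c2, a calcium pump of the secretory pathway, 2.94-fold (adjusted p = 0.00854 each). Ngfr, the low-affinity neurotrophin receptor, rose from 12.5 ± 1.73 to 27.6 ± 4.17 FPKM (adjusted p = 0.00902). Aoc1, the diamine oxidase that degrades histamine, was the most abundant of the 12 at 170, 190 and 268 FPKM in WT and 428, 367 and 646 FPKM in HIF2A cKO (adjusted p = 0.0406). The remaining members of the 12 were Add2, a membrane skeleton adducin (3.94-fold), Apobec2 of the APOBEC family (2.82-fold), the protease inhibitor A2m (2.80-fold) and Dkkl1 (2.86-fold), with Slc16a3 described above.

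Crabp2, Ccl11, Fam3b, Atp2c2 and Ngfr passed in all 6 fits that left out 1 library. Il1a lost its call without WT replicate 2 or HIF2A cKO replicate 1 (adjusted p up to 0.0832). Add2, Apobec2, A2m, Aoc1 and Dkkl1 lost theirs without WT replicate 2 or HIF2A cKO replicate 1 (adjusted p up to 0.152, 0.111, 0.139, 0.138 and 0.114). The same happened without WT replicate 1 for Add2, Apobec2 and Aoc1, without WT replicate 4 for A2m and Dkkl1, without HIF2A cKO replicate 2 for Add2, Apobec2, A2m and Dkkl1, and without HIF2A cKO replicate 4 for Apobec2, A2m and Aoc1. In the fit of 14 libraries only Il1a (adjusted p = 0.00751) and Slc16a3 (adjusted p = 0.0273) of these 12 passed.

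The 12 largest falls by the naming rule were in genes of several kinds. Krt23, an epithelial keratin, is on chromosome 11 from 99477974 to 99493137. It fell from 6.69, 9.32 and 6.26 FPKM in WT to 1.17, 1.33 and 1.23 FPKM in HIF2A cKO, 5.99-fold lower by means (log2 difference -1.89, SE 0.13, adjusted p = 0.00243). Msx1, a homeobox factor of the uterine epithelium that prepares it for implantation, stood at 62.3, 64.1 and 49.6 FPKM in WT and 17.7, 15.2 and 21.1 FPKM in HIF2A cKO (3.26-fold lower, adjusted p = 0.00335). The 3 libraries of HIF2A cKO were close to each other in both genes and far below WT. Msx1os, the antisense transcript named for the same locus, fell 4.00-fold (adjusted p = 0.00192); whether the counting used strand is not given in the sources used here, so reads of the pair may not be separated. Il33, an alarmin cytokine, had WT values of 15.97, 18.7 and 14.5 FPKM and HIF2A cKO values of 4.48, 7.26 and 4.93 FPKM (2.95-fold lower, adjusted p = 0.00854). Sult1d1, a sulfotransferase, fell from 9.11, 20.9 and 10.9 FPKM to 3.16, 3.59 and 2.95 FPKM (4.22-fold lower, adjusted p = 0.0191). Gpx2, an epithelial glutathione peroxidase, was even in WT at 9.39 to 10.6 FPKM and uneven in HIF2A cKO at 2.75, 1.09 and 5.15 FPKM (adjusted p = 0.0468). Mmp10, a stromelysin, fell 2.40-fold and Tmed6, a cargo protein of the early secretory pathway, 2.71-fold. The rest of the 12 were Tns4, a tensin of adhesion sites (2.71-fold lower), Gstm7, a glutathione transferase (2.65-fold), Wfdc15b, a whey acidic protein family member (2.81-fold), Serpina3h, a member of a serine protease inhibitor family that GENCODE M21 annotates as a transcribed unprocessed pseudogene (2.85-fold), and Ap3b2, a subunit of a vesicle coat adaptor (2.65-fold). Gstm7 and Serpina3h belong to families of near-identical neighbours, so their levels are uncertain.

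Krt23, Msx1, Msx1os, Il33, Wfdc15b, Tmed6 and Mmp10 passed in all 6 fits that left out 1 library. Tns4, Gstm7 and Ap3b2 lost their calls only without HIF2A cKO replicate 1 (adjusted p = 0.0513, 0.0889 and 0.0628), and Sult1d1 without HIF2A cKO replicate 1 or 4 (adjusted p up to 0.0899). Gpx2 failed without any of the WT libraries or HIF2A cKO replicate 1 (adjusted p up to 0.153) and Serpina3h without any library but HIF2A cKO replicate 4 (adjusted p up to 0.160). In the fit of 14 libraries Tns4 (adjusted p = 0.0273) and Ap3b2 (adjusted p = 0.0389) passed.

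**Figure D3:**
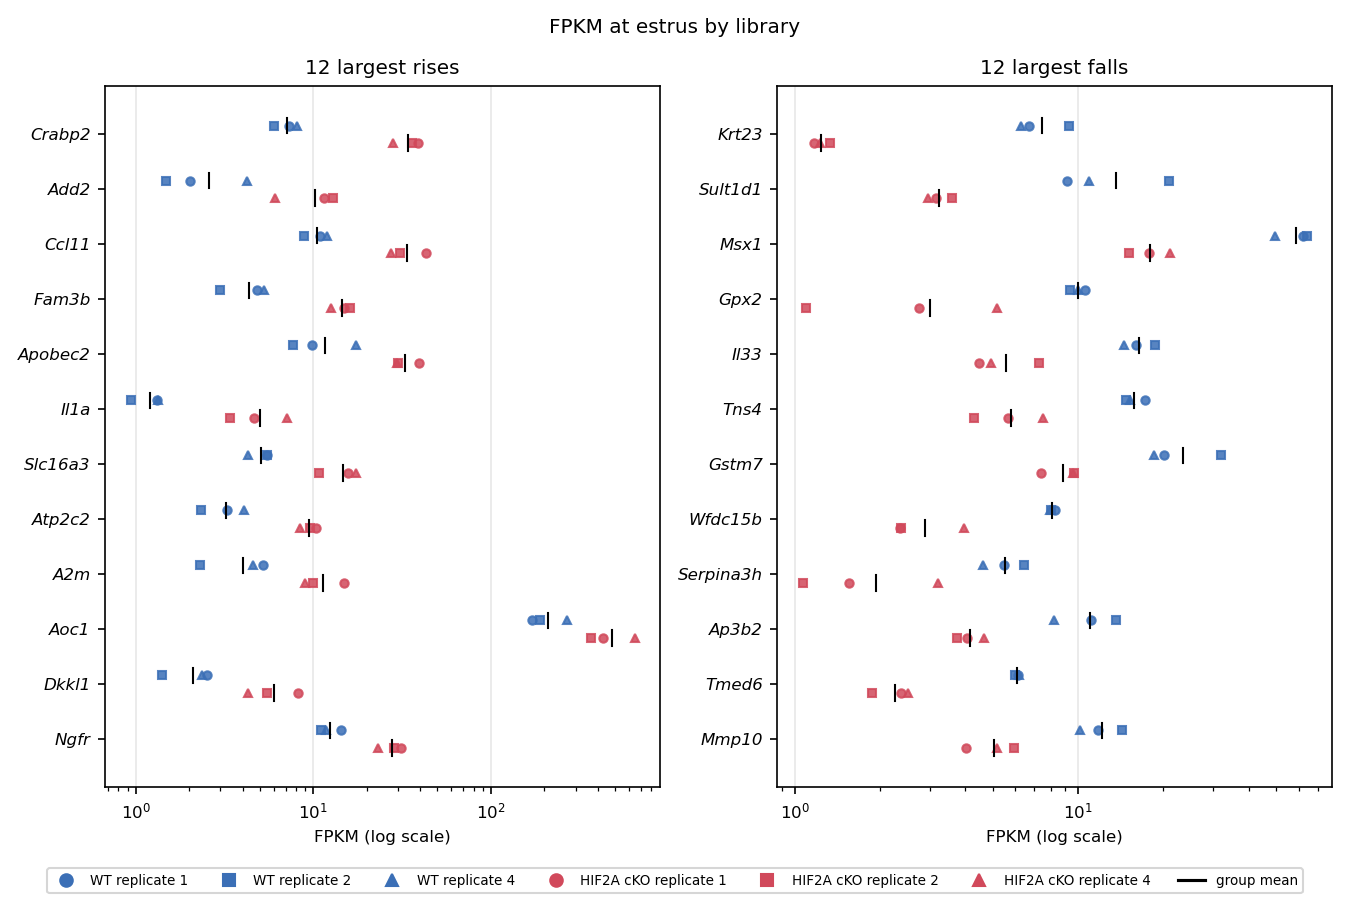
FPKM on a log axis for the 12 largest rises (left) and 12 largest falls (right) that the naming rule gave; each point is 1 estrus library, blue for WT and red for HIF2A cKO, with the replicate as its shape and the group mean as a black bar. The genotypes do not overlap in any of the 24 genes, which the rule required.

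Several of the genes that fell belong to glands and to signals between epithelium and stroma. Foxa2, the factor that marks uterine glands and is needed for their formation, lies on chromosome 2 from 148042877 to 148046969. It stood at 3.67, 3.85 and 3.61 FPKM in WT and 0.484, 0.582 and 0.920 FPKM in HIF2A cKO (5.60-fold lower by means, log2 difference -1.51, adjusted p = 0.00278). Ihh, the hedgehog ligand that the epithelium makes under progesterone, was at 1.17, 2.35 and 1.31 FPKM in WT and 0.163, 0.174 and 0.307 FPKM in HIF2A cKO (7.48-fold lower, adjusted p = 0.0228). Both were under 1 FPKM in every HIF2A cKO library and passed the filter only through the WT libraries, so these 2 genes had to differ to be tested.

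Of 10 gland markers, 4 passed the filter: Foxa2 and Sult1d1 fell, while Gjb2 stood at 90.2 to 99.8 FPKM in WT and 81.1 to 127 FPKM in HIF2A cKO, and Lif, the cytokine of implantation, at 1.14 to 1.93 and 1.51 to 3.29 FPKM. The 2 falls were 50% of the markers tested, against 1.26% of all genes lower, but Foxa2 was tested only through its WT level. Cxcl15, Prss28, Prss29, Spink3, Ttr and Wif1 were below the filter, so at estrus most of this marker list could not be tested. The summed level of the list was 116 to 117 FPKM in WT and 89.2 to 134 FPKM in HIF2A cKO. In bulk tissue, fewer gland cells and less RNA per gland cell cannot be told apart.

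The receiving end of hedgehog signalling was not past the threshold. Gli1, a direct target, had WT values of 2.01, 2.71 and 2.01 FPKM and HIF2A cKO values of 1.45, 0.951 and 1.11 FPKM (adjusted p = 0.0513). Ptch1, receptor and target, had means of 14.6 and 12.8 FPKM (adjusted p = 0.252). Of 12 hedgehog pathway genes tested, Ihh alone fell (8.33%, against 1.26% of all genes lower) and none rose. Among 16 progesterone response genes tested Ihh and Msx1 fell (12.5%) and none rose, with a list median of -0.08. Ihh counts in both lists although it was tested only through its WT level. The call of Ihh was lost without HIF2A cKO replicate 1 or 2 (adjusted p up to 0.0984), and the filter dropped it where a WT library was left out; Foxa2 was tested in the same 3 fits, those without a HIF2A cKO library, and passed in each (adjusted p up to 0.0168). Neither passed in the fit of 14 libraries (adjusted p = 0.269 for Foxa2 and 0.799 for Ihh).

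Of 24 Wnt pathway genes tested, 3 fell and none rose (12.5%, against 1.26% of all genes lower). The list's median log2 difference was -0.09, with 13 differences negative and 11 positive. Lgr5, a receptor for R-spondins and a Wnt target, was at 2.56, 2.28 and 1.46 FPKM in WT and 0.427, 0.318 and 0.418 FPKM in HIF2A cKO (5.42-fold lower, adjusted p = 0.0109), again tested only through its WT level. Lef1, a factor that acts with beta-catenin, fell from 3.43 ± 0.493 to 1.89 ± 0.310 FPKM (adjusted p = 0.0358). Fzd1, a Wnt receptor, fell from 29.1 ± 1.33 to 21.3 ± 1.31 FPKM (adjusted p = 0.0151). Axin2, the most widely used target gene, had WT values of 25.1, 26.4 and 21.04 FPKM and HIF2A cKO values of 18.3, 17.0 and 19.0 FPKM and just missed the threshold (adjusted p = 0.0541). The ligands Wnt4, Wnt5a and Wnt7a did not pass, with WT and HIF2A cKO values that overlapped for Wnt4 and Wnt7a, and Ctnnb1, which encodes beta-catenin, had adjusted p = 0.547.

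Further genes of this pathway outside the list were chosen after their values were seen, and are a description. Sp5, a Wnt-induced factor, was at 4.79, 5.53 and 4.43 FPKM in WT and 1.88, 1.64 and 1.52 FPKM in HIF2A cKO (adjusted p = 0.00354). Ascl2, a target that marks Wnt-dependent progenitors in the gut, fell 4.04-fold (adjusted p = 0.00360), the receptor Fzd10 2.12-fold (adjusted p = 0.0117) and Rnf43, the ligase that removes Wnt receptors, 1.61-fold (adjusted p = 0.0106). Ccnd1, cyclin D1, fell from 23.4, 21.6 and 19.7 FPKM to 12.9, 12.8 and 13.1 FPKM (adjusted p = 0.00533). The cell cycle list beside it had none of 18 members past the threshold. At an unadjusted p under 0.05 in limma, 5 were lower and 0 higher, against 8.81% of all genes lower and 12.5% higher. Ascl2, at 2.37 to 2.65 FPKM in WT and 0.476 to 0.754 FPKM in HIF2A cKO, was tested only through its WT level. Sp5 and Ccnd1 passed in all 6 fits that left out 1 library, and Ascl2 in the 3 that tested it. Lgr5 and Rnf43 lost their calls without HIF2A cKO replicate 1 (adjusted p = 0.0522 and 0.0561), Fzd10 without WT replicate 2 (adjusted p = 0.0549), Fzd1 without either (adjusted p up to 0.0832) and Lef1 also without WT replicate 1 or HIF2A cKO replicate 2 (adjusted p up to 0.133). None of these 8 passed in the fit of 14 libraries, where Ccnd1 had the lowest adjusted p at 0.0789.

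**Figure D4:**
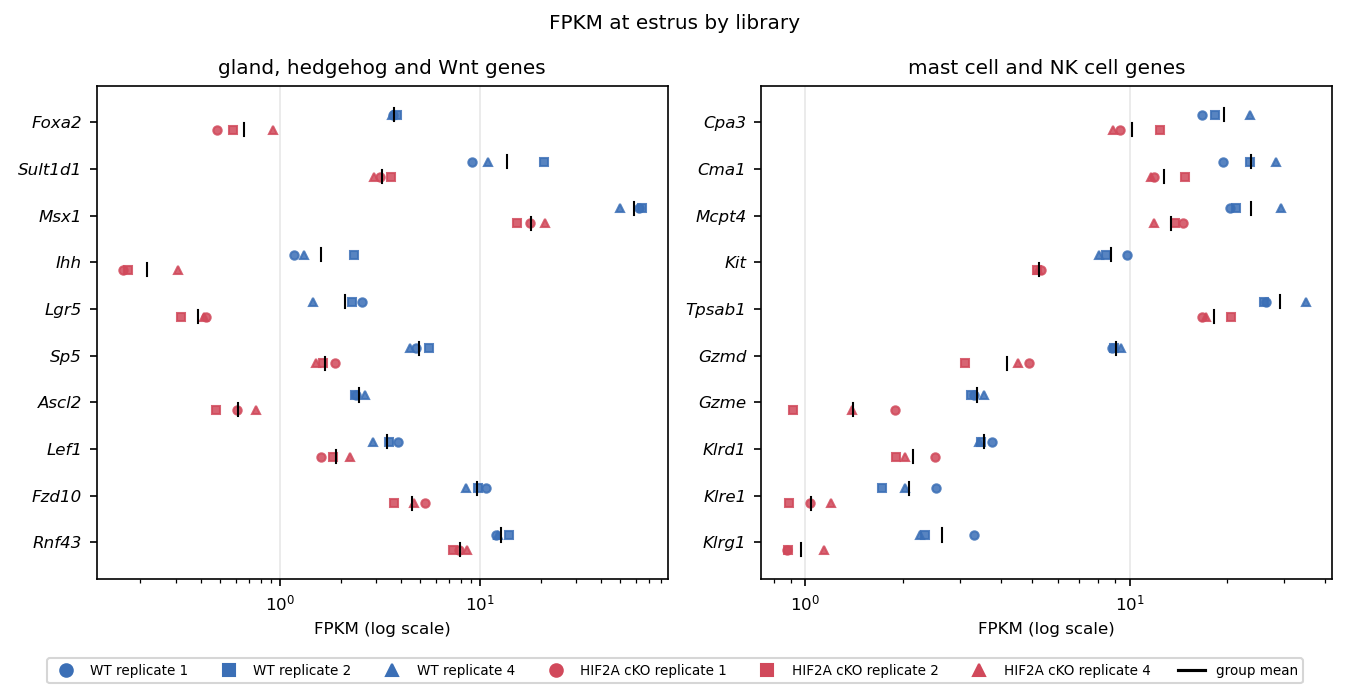
FPKM on a log axis for gland, hedgehog and Wnt genes (left) and for mast cell and natural killer cell genes (right), with 1 point per estrus library, blue for WT and red for HIF2A cKO, and the group mean as a black bar. Each gene shown is lower in all 3 HIF2A cKO libraries than in all 3 WT libraries, and Foxa2, Ihh, Lgr5 and Ascl2 are under 1 FPKM in HIF2A cKO. Only genes past the threshold and lower were drawn, so the shared direction comes from the choice. Members that did not pass, such as Gjb2, Lif, Axin2, Tpsb2, Hdc and Ncr1, are not drawn, and Tpsab1 is a tryptase gene outside the mast cell list.

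Several mast cell markers were lower in HIF2A cKO. Of 8 markers, 6 were tested and all 6 differences were negative, with a median of -0.70; 4 passed, all lower (66.7%, against 1.26% of all genes), and Fcer1a and Ms4a2 were below the filter. Cpa3, the carboxypeptidase of mast cell granules, was at 16.7, 18.4 and 23.5 FPKM in WT and 9.31, 12.4 and 8.88 FPKM in HIF2A cKO (1.92-fold lower, adjusted p = 0.0265). Cma1, a chymase, had 19.4, 23.5 and 28.2 FPKM in WT and 11.9, 14.8 and 11.6 FPKM in HIF2A cKO (adjusted p = 0.0255). Mcpt4, another chymase, fell 1.77-fold (adjusted p = 0.0322) and Kit, the receptor for stem cell factor, from 8.77 ± 0.933 to 5.25 ± 0.0746 FPKM (adjusted p = 0.00964). In all 4 the genotypes did not overlap. Tpsb2, a tryptase, stood at 25.8 ± 5.03 and 16.7 ± 1.97 FPKM (adjusted p = 0.0591) and Hdc, which makes histamine, at 2.47 and 2.09 FPKM. The summed level of the markers was 94.6 to 126 FPKM in WT and 56.0 to 67.3 FPKM in HIF2A cKO. The mast cell proteases belong to families of related genes, so reads may be split among them. Counts of lower mast cell markers were 4 without WT replicate 1, 1 without WT replicate 2, 4 without WT replicate 4, 0 without HIF2A cKO replicate 1, 3 without HIF2A cKO replicate 2 and 1 without HIF2A cKO replicate 4, and 0 in the fit of 14 libraries.

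Natural killer cell genes gave a mixed picture. On the list of T and NK cell markers none of 9 tested passed and 8 of the 9 differences were negative. The summed level was 25.1 to 30.5 FPKM in WT and 21.1 to 26.6 in HIF2A cKO. At an unadjusted p under 0.05 in limma 2 were lower, against 8.81% of all genes. Klrb1c, among those 2, was at 0.573 to 0.751 FPKM in HIF2A cKO. It passed the filter only through WT, so it had to differ to be tested. Ncr1, a defining NK receptor, had means of 3.26 FPKM in WT and 3.07 FPKM in HIF2A cKO (adjusted p = 0.714). Outside the list, and chosen after their values were seen, Gzmd (8.85 to 9.42 FPKM in WT and 3.11 to 4.88 FPKM in HIF2A cKO, adjusted p = 0.0118) and Gzme (adjusted p = 0.0244), granzymes of the uterine NK cell, fell together with the receptors Klrd1 (1.66-fold, adjusted p = 0.0278), Klre1 (2.01-fold, adjusted p = 0.0426) and Klrg1 (2.72-fold, adjusted p = 0.0187). Gzmd and Gzme are near-identical to each other, so their levels are uncertain. They lie near Mcpt4 on chromosome 14, where the starts of these 3 genes lie between 56059629 and 56129556. Gzmd lost its call without WT replicate 2 (adjusted p = 0.0545), Klrg1 without WT replicate 2 or HIF2A cKO replicate 1 (adjusted p up to 0.0883), Gzme without WT replicates 2 or 4 or HIF2A cKO replicate 4 (adjusted p up to 0.0847), Klrd1 in all but the fit without HIF2A cKO replicate 1 (adjusted p up to 0.0990) and Klre1 without any 1 library (adjusted p up to 0.147). Other leukocyte lists had few genes past the threshold. Of 7 macrophage markers Cd68 rose (14.3%, against 2.09% of all genes higher), and none of 3 neutrophil, 3 B and plasma cell or 7 MHC class II genes passed. All 7 macrophage differences were positive (median log2 difference 0.233) and all 7 MHC class II differences were negative (median -0.154).

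Some matrix genes were higher in HIF2A cKO. Of 27 extracellular matrix genes tested, 6 rose and 1 fell (25.9% together, against 3.35% of all genes), with a median log2 difference of 0.16. At an unadjusted p under 0.05 in limma, 16 were higher and 2 lower, against 12.5% of all genes higher and 8.81% lower. Col6a2, a chain of collagen VI, was at 154, 137 and 159 FPKM in WT and 229, 231 and 213 FPKM in HIF2A cKO (adjusted p = 0.00916). Its partner chain Col6a1 rose 1.37-fold (adjusted p = 0.0244). Col6a4, a related chain outside the list and chosen after its values were seen, went from 86.35, 83.5 and 97.2 FPKM to 172, 190 and 159 FPKM (1.95-fold, adjusted p = 0.00354) and passed in all 6 fits that left out 1 library. Eln, elastin, rose from 6.49 ± 1.40 to 11.3 ± 1.36 FPKM (adjusted p = 0.0393), and Col1a2 (1.32-fold), Sparc (1.34-fold) and Fn1 (1.22-fold) completed the rise. Col1a1 and Col3a1 did not pass, with adjusted p of 0.0598 and 0.0517. Tnc, tenascin C, went the other way, from 27.8, 34.5 and 34.6 FPKM in WT to 13.3, 20.2 and 16.7 FPKM in HIF2A cKO (adjusted p = 0.0229), but it lost its call without WT replicates 2 or 4 or HIF2A cKO replicates 1 or 4 (adjusted p up to 0.0882) and in the fit of 14 libraries (adjusted p = 0.599).

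Among 23 enzymes that remodel matrix Mmp10, Mmp3 (33.2 ± 2.58 to 23.5 ± 0.227 FPKM, adjusted p = 0.0109) and Mmp15 (adjusted p = 0.0462) fell and none rose (13%, against 1.26% of all genes lower). Of 13 fibroblast markers none passed and the median log2 difference was 0.00071, while their summed level was 2141 to 2360 FPKM in WT and 2489 to 2564 FPKM in HIF2A cKO. Smooth muscle markers had 11 of 12 positive differences and a summed level of 4618 to 5168 FPKM against 5332 to 5642 FPKM; only Acta2, smooth muscle actin, passed (542, 577 and 618 to 778, 779 and 799 FPKM, adjusted p = 0.0238). Acta2 alone was 8.33% of the smooth muscle list, against 2.09% of all genes higher. Mesothelial markers of the outer surface, all 5 positive, summed to 65.1 to 66.5 FPKM in WT and 81.1 to 94.0 FPKM in HIF2A cKO, with Upk3b (15.2 ± 0.199 to 22.2 ± 1.64 FPKM, adjusted p = 0.00916) and Msln (adjusted p = 0.0257) past the threshold (40% of the list). Mmp3 and Upk3b lost their calls without HIF2A cKO replicate 1 (adjusted p = 0.0585 and 0.0561), Msln without that library or any 1 WT library (adjusted p up to 0.0936), Acta2 without WT replicate 2 or any 1 HIF2A cKO library (adjusted p up to 0.108) and Mmp15 in all but the fit without WT replicate 4 (adjusted p up to 0.161). The part of tissue makeup in the matrix result was not tested. Matrix genes higher numbered 6 without WT replicate 1, 1 without WT replicate 2, 3 without WT replicate 4, 0 without HIF2A cKO replicate 1, 2 without HIF2A cKO replicate 2 and 3 without HIF2A cKO replicate 4, and 0 in the fit of 14 libraries.

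Estrogen response genes moved in both directions. Of 28 listed, 22 were tested, 4 rose and 2 fell (27.3% together, against 3.35% of all genes), with a median log2 difference of 0.20. Padi1 and Padi2, deiminases of the estrogen-stimulated epithelium, rose from 145 ± 26.0 to 241 ± 10.3 FPKM and from 55.2 ± 9.16 to 95.1 ± 15.7 FPKM (adjusted p = 0.0244 and 0.0382). Ramp3, a partner of the adrenomedullin receptor, was at 28.5, 24.2 and 24.4 FPKM in WT and 44.3, 39.3 and 39.4 FPKM in HIF2A cKO (adjusted p = 0.00916). Inhbb, the beta B subunit of activin, rose 1.63-fold (adjusted p = 0.0328). Ctgf, a matricellular growth factor, stood at 81.9, 81.3 and 84.3 FPKM in WT and 50.8, 47.6 and 54.1 FPKM in HIF2A cKO (adjusted p = 0.00335), and Il17rb fell 2.10-fold (adjusted p = 0.0118). Clca3, an abundant product of the estrus epithelium, had 1167, 926 and 1463 FPKM in WT and 2506, 3297 and 1857 FPKM in HIF2A cKO but adjusted p = 0.0506. Lcn2, lipocalin 2, at 3216 to 4680 and 4881 to 7862 FPKM, had adjusted p = 0.179. Ltf, lactoferrin, the classic estrogen target of the mouse uterus, was listed at 3508, 3825 and 3841 FPKM in WT and at 0 in each HIF2A cKO library, and C3 at 0 in all 6 libraries. Such zeros in genes this abundant can be failed estimates, so Ltf was left out of the test and no fold is given. Ramp3 and Ctgf passed in all 6 fits that left out 1 library. Padi1 failed without any 1 HIF2A cKO library (adjusted p up to 0.107), Padi2 without WT replicates 1 or 2 or HIF2A cKO replicates 1 or 2 (adjusted p up to 0.147), Inhbb in all but the fit without WT replicate 1 (adjusted p up to 0.0984) and Il17rb without WT replicate 2 or HIF2A cKO replicate 1 (adjusted p up to 0.0522). None of these 6 passed in the fit of 14 libraries.

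General markers of the epithelium were level or slightly higher. Of 15 tested, Elf3 (168 ± 19.8 to 246 ± 3.33 FPKM, adjusted p = 0.0214) and Krt7 (111 ± 8.36 to 157 ± 18.4 FPKM, adjusted p = 0.0355) rose, Msx1 fell, and Epcam (adjusted p = 0.763) and Cdh1 (adjusted p = 0.418) were close to even; their summed level was 1426 to 1718 FPKM in WT and 1728 to 1940 FPKM in HIF2A cKO. The 3 list members past the threshold were 20% of the 15 tested, against 3.35% of all genes. Klf4, a factor of differentiated epithelium, rose from 26.3 ± 4.57 to 54.8 ± 6.88 FPKM (adjusted p = 0.0117). Prap1, a secreted epithelial protein, fell from 2437, 1507 and 1374 FPKM to 800, 914 and 780 FPKM (2.13-fold lower, adjusted p = 0.0400). Aqp4, a water channel, was at 2.34, 1.49 and 1.62 FPKM in WT and 0.127, 0.107 and 0.120 FPKM in HIF2A cKO (15.4-fold lower by means, adjusted p = 0.00533). It passed the filter only through WT, so it had to differ to be tested. Slc26a9, an anion transporter, fell 2.77-fold (adjusted p = 0.0372) and Atp1b1, a sodium pump subunit, 1.55-fold (adjusted p = 0.0207). With Aqp4, 3 of the 18 ion transport genes tested fell (16.7%, against 1.26% of all genes lower) and none rose. Slc26a9, Prap1 and Elf3 lost their calls without any 1 HIF2A cKO library, the first 2 also without WT replicate 2 (adjusted p up to 0.121, 0.152 and 0.101). Krt7 failed without WT replicates 2 or 4 or HIF2A cKO replicates 1 or 4 (adjusted p up to 0.121), Atp1b1 without WT replicate 2 or HIF2A cKO replicate 1 (adjusted p up to 0.0958), and Klf4 without HIF2A cKO replicate 1 (adjusted p = 0.0561).

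Interferon response genes leaned together, with 1 past the threshold. All 25 were tested, 24 differences were positive and the median was 0.45, yet only Bst2 passed (123 ± 16.8 to 198 ± 29.5 FPKM, adjusted p = 0.0363), 4.00% of the list against 3.35% of all genes. The spread inside HIF2A cKO was wide. Irf7, a master factor of the response, was at 25.2, 21.8 and 17.9 FPKM in WT and 35.4, 21.7 and 44.4 FPKM in HIF2A cKO, and Isg15 at 16.5, 9.66 and 7.16 FPKM and 19.3, 7.18 and 29.9 FPKM. Replicate 2 of HIF2A cKO lay inside the WT range for both, and without it 6 members of the list passed. Without WT replicate 1, 3 passed, and 0 passed without WT replicates 2 or 4, HIF2A cKO replicates 1 or 4 or in the fit of 14 libraries.

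**Figure D5:**
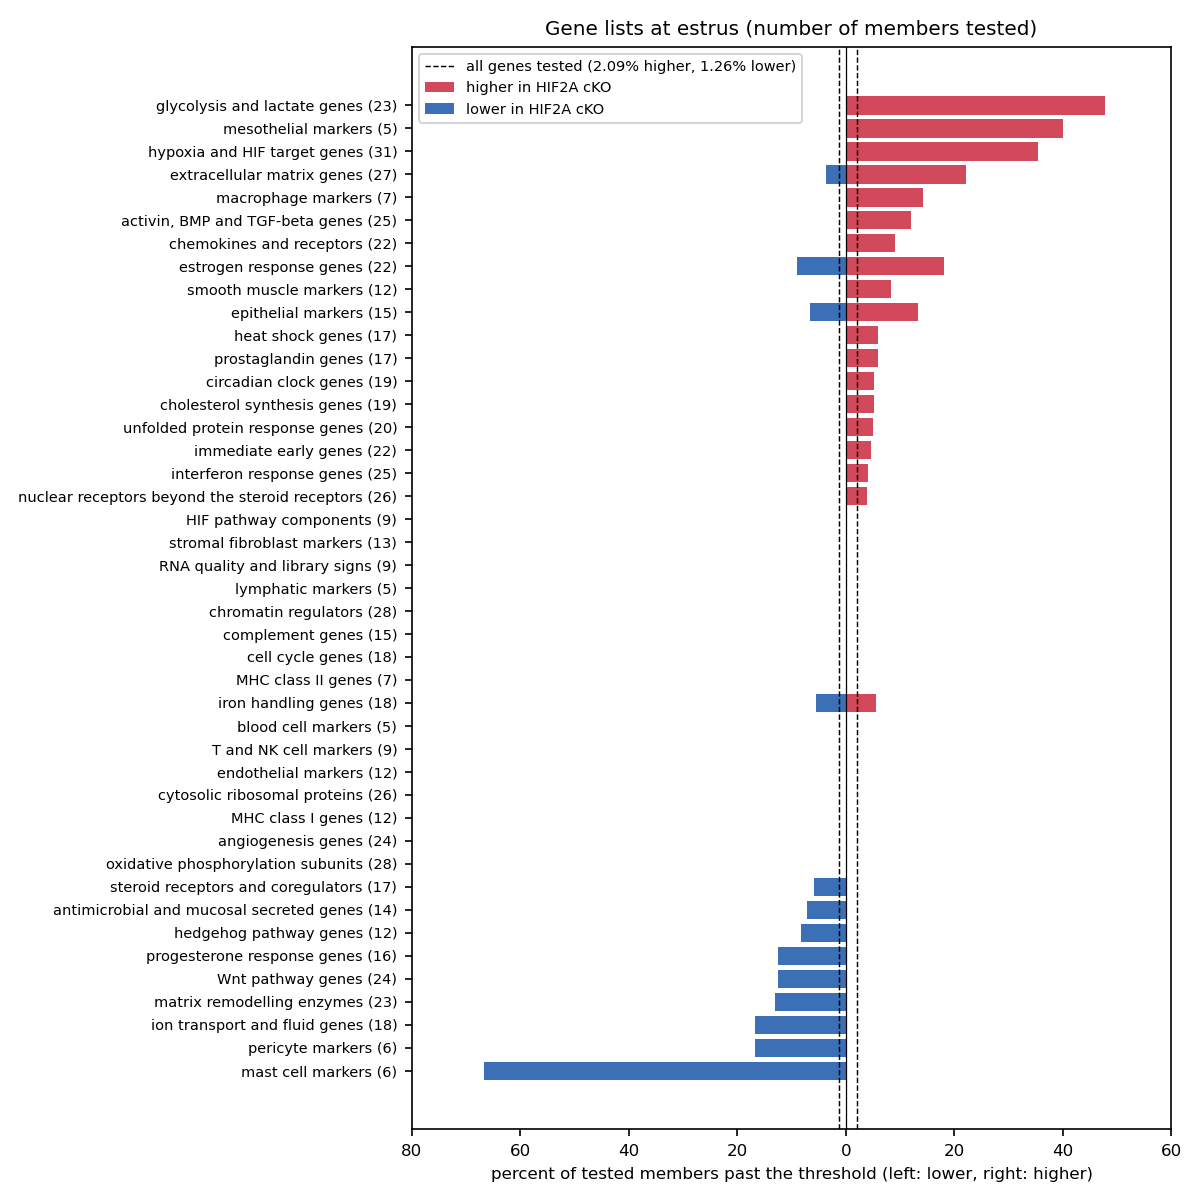
Bars give the percent of tested members of each list that passed the threshold, to the right for higher and to the left for lower in HIF2A cKO, with the number tested in brackets, for every list with at least 5 members tested. The dashed lines mark the shares of all genes, 2.09% higher and 1.26% lower; the glycolysis and hypoxia lists reach far to the right and the mast cell markers far to the left.

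Chemokines, growth factors and housekeeping lists completed the comparison. Of 22 chemokines and receptors Ccl11 and Cxcl12 (237 to 268 FPKM in WT and 322 to 394 FPKM in HIF2A cKO, adjusted p = 0.0306) rose and none fell (9.09%, against 2.09% of all genes higher). Of 25 activin, BMP and TGF-beta genes 3 rose: Inhbb, Bmp4 (11.2 ± 1.54 to 16.7 ± 0.864 FPKM, adjusted p = 0.0303) and Fstl3, an activin antagonist (adjusted p = 0.0228). That was 12% of the list, against 2.09% of all genes higher, while its median log2 difference of 0.0087 was close to the 0.0080 over all genes. A single gene rose in each of the lists of clock genes (Per1), unfolded protein response (Ddit3), heat shock (Hspb1), prostaglandins (Ptger4) and nuclear receptors (Rarg), and 1 of 6 pericyte markers fell, Rgs5. A single gene was 3.85% to 5.88% of each rising list, against 2.09% of all genes higher. Rgs5 was 16.7% of its list, against 1.26% of all genes lower. Apart from Ccl11, each gene past the threshold in these lists lost its call without HIF2A cKO replicate 1, and all but Rgs5 also without WT replicate 2 (highest adjusted p from 0.0787 for Rarg to 0.166 for Per1). In the fit of 14 libraries Fstl3 passed (adjusted p = 0.0348). No member passed among 12 MHC class I genes, 15 complement genes, 28 chromatin regulators, 26 cytosolic ribosomal proteins, 9 genes that mark RNA quality, 28 subunits of oxidative phosphorylation, 12 endothelial, 5 lymphatic, 5 blood, 3 adipocyte, 3 nerve, 4 skeletal muscle or 2 ovary and oviduct markers. The listed subunits of oxidative phosphorylation had a median log2 difference of 0.046, with 22 differences positive and 6 negative. These values cover only the listed subunits. Atpase6 and Cox2, given under other observations, are not among them and were uneven between WT libraries.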

How the data were processed

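RNA of whole uterus, made into libraries with an Illumina TruSeq kit per the labels' protocols, was given by the authors as 1 deposited table of FPKM per gene and library, for 14 libraries. Per the submitters' processing notes, the tools were TopHat2 2.0.4 and Cufflinks 2.0.2 and the build mm10; the sources used here give no counting settings. From the table, log2(FPKM + 1) of the 6 estrus libraries was fitted in limma 3.58.1 (R 4.3.3) with a mean per genotype, a mean-variance trend in eBayes and Benjamini-Hochberg adjustment over 13529 genes, two-sided at 0.05. The pseudocount of 1 makes log2 differences of low genes too small; folds are ratios of mean FPKM. Genes at 0 in 1 library and at 50 FPKM or more in another (Ltf and AK218069) were left out. Depth is unknown, so no counting interval is given.

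The members, gene lists and tests were chosen with earlier results of these data known, and lists were only counted, with no list test. Named genes were Epas1, Hif1a, Arnt, Esr1 and Pgr, the 12 genes of largest rise and fall past the threshold without overlap and with a mean of 5 FPKM or more (small RNAs and numbered models left out), and the 2 largest changes of each list with at least 3 past the threshold; other examples were chosen after their values were seen. Some members of the lists are not reported here by name. Gene places are from GENCODE M21. The fit was also run on simulated data with independent libraries and normally distributed values. Those data lack the dependence on single libraries seen here, so they do not check it. Alternatives changed the pseudocount, filter, scaling, eBayes, library weights, the libraries fitted, a replicate block, a 2-fold rule and the zeros, and left out each library in turn.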

Additional observations from a re-analysis of the deposited data

How the results depend on the processing

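The counts of 283 genes higher and 170 lower stayed within 1.5 times under other pseudocounts (0.1 and 0.5), a filter at 5 FPKM, 3 other scalings, eBayes without a trend or robust, and with the zeros kept. With no filter 40 were higher and 38 lower, with library weights 552 and 310, with all 14 libraries in 1 fit 10 and 5, and with the 2-fold rule 20 and 29. Leaving out 1 library gave 23 to 300 higher and 33 to 146 lower genes. Epas1 passed the threshold only with library weights (log2 difference 0.355). None of the described genes past the threshold changed direction. Where all values of a genotype lie above all of the other, leaving out a library or changing the pseudocount cannot reverse the sign. The largest rises and falls were picked to be of this kind, so for them the kept direction is no check. Hif1a, not past the threshold, ran from -0.08 to 0.02 (log2) when 1 library was left out. Higher genes were 62.5% of all calls, but 40.4% without HIF2A cKO replicate 1 and 40.8% under the 2-fold rule. FPKM carry no depth, so what depth limits cannot be given; with 3 libraries per genotype, a call rests on the spread of 6 values, and the cause of the lost calls was not tested.

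With a replicate block, 169 genes were higher and 103 lower, and 36 of the 41 named genes past the threshold passed. Deviations from the genotype mean correlated at 0.116, 0.102 and -0.0341 between same-numbered libraries (replicates 1, 2 and 4). Between libraries of different numbers they correlated at -0.124 to 0.0548. The pairs of replicates 1 and 2 were thus the highest, while WT replicate 4 correlated best with HIF2A cKO replicate 2 (0.0548). Deviations within a genotype are tied to each other, so these values cannot decide whether the numbers pair the libraries. The labels do not say what a number marks.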

Other observations

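Some entries of the table fall outside the comparison's gene groups. Snord33, a small nucleolar RNA, was at 12.1, 8.26 and 7.84 FPKM in WT and listed at 0 in each HIF2A cKO library. M25573, a clone model, rose from 1759, 701 and 438 FPKM to 3228, 5180 and 3059 FPKM (adjusted p = 0.0498). Atpase6 was at 7.62, 72.4 and 68.2 FPKM in WT and 8.66 to 11.0 FPKM in HIF2A cKO, and Cox2 at 13.8, 113 and 112 FPKM against 13.9 to 14.7 FPKM, so that in both genes WT replicate 1 was near the HIF2A cKO libraries and WT replicates 2 and 4 stood apart.

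The changed genes were spread over the genome. Of the 13529 genes tested, 12396 had 1 place in GENCODE M21, and the share past the threshold ran from 1.67% on chromosome 8 to 4.95% on chromosome 7. None of 28 tested genes within 5 Mb of the start of Epas1 passed and 1 of 85 within 20 Mb did (1.18%), Tmem178, which fell from 4.68 ± 0.213 to 2.46 ± 0.524 FPKM (adjusted p = 0.0209). Some changed genes lay in runs of at least 3, each start close to the next changed one. Mcpt4, Gzme and Gzmd on chromosome 14 were all lower. Upk3b, Upk3bl and Rasa4 on chromosome 5 were all higher, as were Fut4-ps1, Nrtn and Rfx2 on chromosome 17. Prr12, Rcn3, Snord33 and Dkkl1 formed a run on chromosome 7, of which Snord33 was lower. Genes not past the threshold may lie between them, and the number of such runs was not tested.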
